A study of Mus musculus with 6 samples.

Results

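The genes described here are the Wnt ligands, the secreted and membrane proteins that limit Wnt signalling, and the proteins that carry the signal inside the cell, as measured in the mouse modiolus. A list of 46 genes was used: 18 ligands, 11 secreted inhibitors, 3 genes of the R-spondin axis and 14 intracellular genes. A gene was a member if the array held a probe set annotated to it and to no other gene, and the brightest such probe set, by its mean over all 6 arrays, stood for the gene. This gave 45 members with 93 probe sets, out of 18193 genes that were represented in the same way, and Tcf7 had no such probe set in the annotation used here. The choice of the probe set used the overall mean and not the difference between the groups.

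The cochlea winds around a central bony axis, the modiolus, in which the spiral ganglion neurons lie among glia, vessels, connective tissue and bone. Modioli of both ears of a mouse were pooled and hybridised to 1 array per mouse, with 6 CBA/CaJ mice in all. The noise-exposed group held 3 females of 1 litter, which at 4 weeks of age were exposed for 5 h to noise of 5 to 20 kHz at 110 dB SPL and were killed at 8 weeks of age. The unexposed group held 2 males and 1 female of 3 other litters, kept in the holding room and killed at the same age. The noise-exposed mice and unexposed replicate 1, a male, were dissected on 1 day, and unexposed replicates 2, a female, and 3, a male, on a later day. Total RNA input was 10 to 18 ng in the noise-exposed and 8 to 21 ng in the unexposed group. Within the unexposed group it was 21 ng in replicate 1 and 8 ng in each of replicates 2 and 3. Each array thus started from a small amount of total RNA, which was amplified to cDNA. Signals are log2 values from robust multi-array averaging (RMA), and a signal above about 4.3, the cutoff at which the authors' deposited code separates 2 distributions fitted to all signals, is called detected here. The noise-exposed arrays had 24671 to 25069 probe sets above the cutoff and the unexposed arrays 24850 to 25371, and precision is limited by how few arrays there were. The study's question was about guidance receptors, Wnt receptors among them: which of them adult cochleae express, and which stay altered long after damage. The same 2 comparisons are made here for the genes that act around those receptors.

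Wnt proteins are secreted lipid-modified ligands that bind Frizzled receptors and their co-receptors. In the canonical branch, binding recruits Dishevelled and Axin to the membrane, the complex of Axin, Apc and the kinase Gsk3b stops marking beta-catenin for degradation, and beta-catenin then acts in the nucleus with TCF and LEF factors. Other branches act on cell polarity and calcium without beta-catenin. The pathway limits itself through induced genes such as Axin2, Nkd1, Notum, Rnf43 and Znrf3, and it patterns the cochlea during development and guides growing axons.

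Of the 45 members, 22 were detected on all 6 arrays, 16 on none and 7 on 1 to 5 arrays. Among all genes on the array, 60.2% were detected on all 6 arrays. Probe affinity also sets a signal, so no order of abundance between genes is given.

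**Figure D1:**
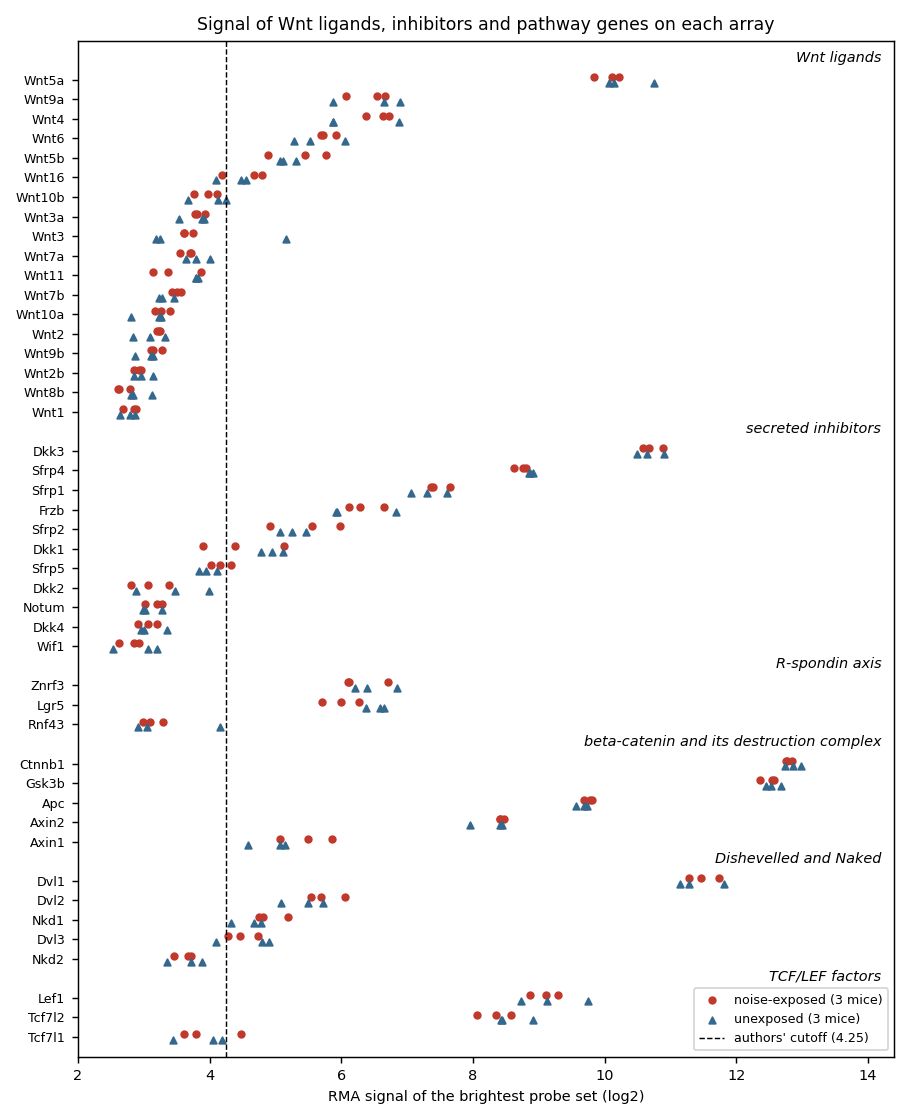
RMA signal on the log2 scale (x axis) of the brightest probe set of each of the 45 genes (y axis, by role), with 1 point per mouse for 3 noise-exposed (circles) and 3 unexposed mice (triangles), and the cutoff as a dashed line. All 5 genes of the beta-catenin complex lie right of the cutoff on every array, while 10 of 18 ligands lie left of it on every array.

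Among the ligands, 5 of 18 were detected on all 6 arrays. These were Wnt4, Wnt5a, Wnt5b, Wnt6 and Wnt9a. The other probe set of Wnt4 was above the cutoff on every array too. Those of Wnt5b and Wnt9a were under it on every array, and that of Wnt6 was above it on 1 unexposed array only. Wnt5a, best known as a ligand of the branches that do not use beta-catenin, gave signals between 9.84 and 10.75, and its other 3 probe sets were also above the cutoff on every array. Wnt16 was detected on 2 of 3 noise-exposed and 2 of 3 unexposed arrays. Wnt3 and Wnt10b were each detected on 1 unexposed array. The Wnt3 signal there, in unexposed replicate 2, was 5.16, while its other 5 values lay between 3.19 and 3.75. The other 10 ligands, among them Wnt1, Wnt3a and Wnt7a, were not detected on any array, and a signal under the cutoff does not show that a transcript is absent.

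Among the secreted inhibitors, 5 of 11 were detected on all 6 arrays. These were Dkk3, a divergent member of the Dickkopf family, and the Frizzled-related proteins Sfrp1, Sfrp2, Sfrp4 and Frzb, which resemble the ligand-binding part of a Frizzled receptor. The other probe set of Frzb was under the cutoff on every array, as were some of those of Sfrp1. Dkk1, a Dickkopf protein that blocks the Lrp co-receptors, was detected on 2 of 3 noise-exposed and on all 3 unexposed arrays. Sfrp5 was detected on 1 noise-exposed array only, and Dkk2, Dkk4, Wif1 and Notum, the enzyme that removes the lipid of Wnt proteins, on none.

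Among the intracellular genes and the R-spondin axis, 12 of 16 were detected on all 6 arrays. All 5 genes of beta-catenin and its destruction complex (Ctnnb1, Gsk3b, Apc, Axin1 and Axin2) were detected on all 6 arrays. The Dishevelled genes Dvl1 and Dvl2 and the Dishevelled inhibitor Nkd1 were detected on all 6, Dvl3 on all 3 noise-exposed and 2 of 3 unexposed arrays, and Nkd2 on none. Of the nuclear factors, Lef1 and Tcf7l2 were detected on all 6 arrays and Tcf7l1 on 1. The other probe set of each of Axin1, Axin2, Dvl2 and Lef1 was under the cutoff on every array. Of the R-spondin axis, the receptor Lgr5 and the ubiquitin ligase Znrf3, which removes Frizzled receptors from the membrane, were detected on all 6, and the related ligase Rnf43 on none.

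The second comparison was noise-exposed against unexposed modioli. A probe set was tested if it was detected on at least 3 of the 6 arrays, and 25 of the 45 members passed this filter, against 65.2% of all genes. None of the 25 was called by limma at an adjusted p under 0.05 over all 25200 tested probe sets, of which 0% were called. Without unexposed replicate 2, 15 probe sets or 0.0595% were called, none of them a member. The lowest adjusted p among the members was 0.669, for Lgr5. At an unadjusted p under 0.05 there was 1 member, again Lgr5, against 6.19% of all 11858 tested genes and 7.07% of all tested probe sets. The groups did not overlap for 2 members, Lgr5 and Sfrp4, both lower in noise-exposed mice, where 3.41% of all tested genes were separated in that direction. No member was separated with the noise-exposed mice higher, against 10.4% of all tested genes. Of the 25 members, 14 had a log2 fold change (noise-exposed minus unexposed) above 0, against 63.3% of all tested genes, and the median was 0.08 for the members and 0.07 for all tested genes. In bulk tissue, fewer cells of a type and less RNA per cell cannot be told apart.

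The intervals show how large a difference between these groups of mice the data leave room for. All noise-exposed mice were of 1 litter and all unexposed mice of other litters, so noise and litter cannot be told apart. The 95% interval of the log2 fold change lay between -1 and 1, a 2-fold difference either way, for 22 of the 25 members. It reached past that bound for Axin1, Wnt4 and Dkk1, so that a change of 2-fold could not be told from none for these. The median SE of the members was 0.22, against 0.18 for all tested genes.

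**Figure D2:**
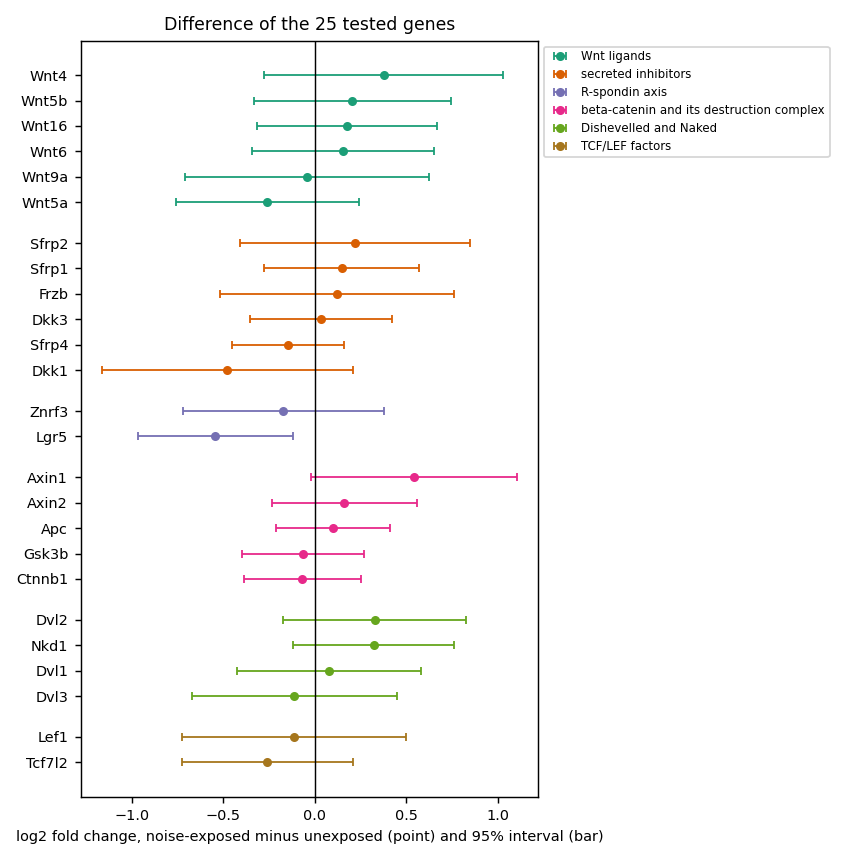
Log2 fold change of noise-exposed minus unexposed modioli (point, x axis) with its 95% interval (bar) for the 25 tested genes (y axis), coloured by role. The interval includes 0 for 24 of the 25 and lies wholly below 0 for Lgr5.

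The R-spondin axis held the member with the lowest p. Lgr5, a receptor for R-spondins and a marker of supporting cells in the organ of Corti, had signals of 6.0, 6.27 and 5.71 in noise-exposed mice, against 6.58, 6.65 and 6.38 in unexposed mice. Every noise-exposed value lay below every unexposed value. The log2 fold change was -0.54 (95% interval -0.97 to -0.12, limma adjusted p = 0.669, with an SD of 0.28 in noise-exposed and 0.14 in unexposed mice). It was -0.59 against unexposed replicate 1 alone, the mouse of the same dissection day, and -0.66 against unexposed replicate 2 alone, the only unexposed female. The other probe set of Lgr5 gave 3.90 to 4.17 in noise-exposed mice, against 3.99 to 4.70 in unexposed mice, with overlapping groups, and it was detected on 1 unexposed array only. The authors' deposited table covers 17 arrays, of which 11 are from earlier work. There the mean was 4.80 for the probe set used here and 5.79 for the other one, so that their order was turned round. Against a signal of 5.1, neither mean reached a Bonferroni-corrected p under 0.05 in that table. Of 6 markers of cochlear supporting cells, 4 were tested, 3 of them with positive log2 fold changes. Of these, Otog was detected on all 3 noise-exposed arrays but on only 1 unexposed array. The log2 of the summed signal of the list was 9.64 to 9.84 in noise-exposed and 9.50 to 10.08 in unexposed mice. Prox1, at 9.16 to 9.84 the brightest gene of the list, weighed most in that sum and had a log2 fold change of -0.13. Tecta and Tectb lay under the cutoff on all arrays, as did all 5 measured hair cell markers, and the part of cell makeup in the Lgr5 difference was not tested. Znrf3 had 6.12, 6.11 and 6.71 in noise-exposed mice, against 6.21, 6.85 and 6.39 in unexposed mice, and the groups overlapped. Its log2 fold change was -0.17 with all mice and 0.10 against unexposed replicate 1 alone, and with single mice left out it lay between -0.37 without noise-exposed replicate 3 and 0.012 without unexposed replicate 2.

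Among the ligands, 4 of 6 tested genes lay above 0 and none was called. Wnt4, a ligand with roles in kidney, gonad and axon guidance, had 6.64, 6.38 and 6.72 in noise-exposed mice, against 5.87, 6.87 and 5.88 in unexposed mice. The noise-exposed values were close together, while unexposed replicate 2 was the highest of all and the other unexposed mice were the lowest. The log2 fold change was 0.38 (95% interval -0.28 to 1.03), and it was 0.71 against unexposed replicate 1 alone and -0.29 against unexposed replicate 2 alone. It was 0.21 without unexposed replicate 1 or 3. Without unexposed replicate 2 it was 0.71 with a limma adjusted p of 0.189, against 0.764 with all mice and 0.647 to 0.992 under the other alternatives. Its other probe set gave 0.30. Wnt5a had 9.84, 10.11 and 10.21 in noise-exposed mice, against 10.06, 10.75 and 10.14 in unexposed mice, and the log2 fold change was -0.26 (SE 0.22). Apart from the high unexposed replicate 2 the Wnt5a groups interleaved, and the value was -0.04 without that mouse and -0.15 without noise-exposed replicate 1. Further, 2 of the 3 other probe sets of Wnt5a had the opposite sign, at 0.26 and 0.08. Wnt5b, a close relative of Wnt5a, had 5.77, 4.89 and 5.45 in noise-exposed mice, against 5.11, 5.32 and 5.07 in unexposed mice. Here the noise-exposed mice spread more widely than the unexposed ones, and the log2 fold change was 0.21 (SE 0.23), or 0.0054 without noise-exposed replicate 1 and 0.44 without noise-exposed replicate 2. Wnt16, Wnt6 and Wnt9a had log2 fold changes of 0.18, 0.15 and -0.04, with overlapping groups.

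Among the secreted inhibitors, Sfrp4 was the second member whose groups did not overlap. It had 8.62, 8.80 and 8.76 in noise-exposed mice, against 8.90, 8.87 and 8.85 in unexposed mice. The log2 fold change was -0.15 (95% interval -0.45 to 0.16, limma adjusted p = 0.797), and it was -0.09 without noise-exposed replicate 1. Dkk1 had 5.13, 3.90 and 4.39 in noise-exposed mice, against 4.78, 4.95 and 5.12 in unexposed mice. Noise-exposed replicate 1 was level with the highest unexposed mouse, noise-exposed replicate 2 lay under the cutoff, and the log2 fold change was -0.48 (SE 0.30, limma adjusted p = 0.737). It was -0.81 without noise-exposed replicate 1 and -0.19 without noise-exposed replicate 2. The other probe set of Dkk1 was under the cutoff on every array, at 2.43 to 2.72. Sfrp2 and Sfrp1 had log2 fold changes of 0.22 and 0.15, Frzb 0.12 and Dkk3 0.03. For Dkk3 the 95% interval was -0.35 to 0.42. Its other probe set was at 0.27 (95% interval -0.11 to 0.65), with overlapping groups.

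In the beta-catenin complex, 3 of 5 genes lay above 0 and none was called. Ctnnb1, which encodes beta-catenin, averaged 12.79 ± 0.05 in noise-exposed mice, against 12.86 ± 0.12 in unexposed mice (SD, n = 3 each). The 95% interval of the log2 fold change was -0.39 to 0.25. Gsk3b averaged 12.49 ± 0.12 in noise-exposed mice, against 12.55 ± 0.11 in unexposed mice. All 5 of its other probe sets had the same negative sign, between -0.31 and -0.05, and at the largest of these the groups did not overlap (limma adjusted p = 0.711). Apc averaged 9.76 ± 0.06 in noise-exposed mice, against 9.66 ± 0.09 in unexposed mice, and its other 3 tested probe sets were also above 0. Axin1, the constitutive scaffold of the complex, had 5.49, 5.07 and 5.86 in noise-exposed mice, against 5.07, 4.58 and 5.14 in unexposed mice, so that the lowest noise-exposed value fell among the unexposed ones. The log2 fold change of Axin1 was 0.54 (95% interval -0.02 to 1.11, limma adjusted p = 0.704), it was above 0 against unexposed replicate 1 alone (0.40) and against unexposed replicate 2 alone (0.90), and it was 0.35 without noise-exposed replicate 3. The other probe set of Axin1 was under the cutoff on every array. Axin2, the scaffold that the canonical branch itself induces, had 8.41, 8.47 and 8.41 in noise-exposed mice, against 7.96, 8.44 and 8.41 in unexposed mice. For Axin2, 5 of the 6 mice lay within 8.41 to 8.47 and unexposed replicate 1 lay lower, with a log2 fold change of 0.16 against all unexposed mice, 0.0057 without unexposed replicate 1 and -0.010 against unexposed replicate 2 alone.

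Dishevelled genes pass the signal from the receptor to the complex, and Naked proteins bind Dishevelled. Dvl2 had 6.06, 5.54 and 5.69 in noise-exposed mice, against 5.72, 5.09 and 5.50 in unexposed mice, and the log2 fold change was 0.33 (SE 0.22). Nkd1 had 5.20, 4.75 and 4.82 in noise-exposed mice, against 4.68, 4.33 and 4.79 in unexposed mice. Its log2 fold change was 0.32 (SE 0.19), and its other tested probe set was at -0.07. The remaining Nkd1 probe sets were under the cutoff on all or most arrays and were not tested. In both Dvl2 and Nkd1 the groups overlapped, unexposed replicate 2 was the lowest mouse and noise-exposed replicate 1 the highest. Without unexposed replicate 2 the log2 fold change was 0.16 for Dvl2 and 0.19 for Nkd1, and without noise-exposed replicate 1 it was 0.18 for each. Dvl1 was at 0.08 and Dvl3 at -0.11. Of the nuclear factors, Tcf7l2 had 8.06, 8.34 and 8.58 in noise-exposed mice, against 8.42, 8.91 and 8.44 in unexposed mice, and the log2 fold change was -0.26 (SE 0.20), and its other tested probe sets were at -0.12 and -0.34. For Tcf7l2 it was -0.10 without unexposed replicate 2 and -0.13 without noise-exposed replicate 1. Lef1 was at -0.11 (SE 0.26).

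**Figure D3:**
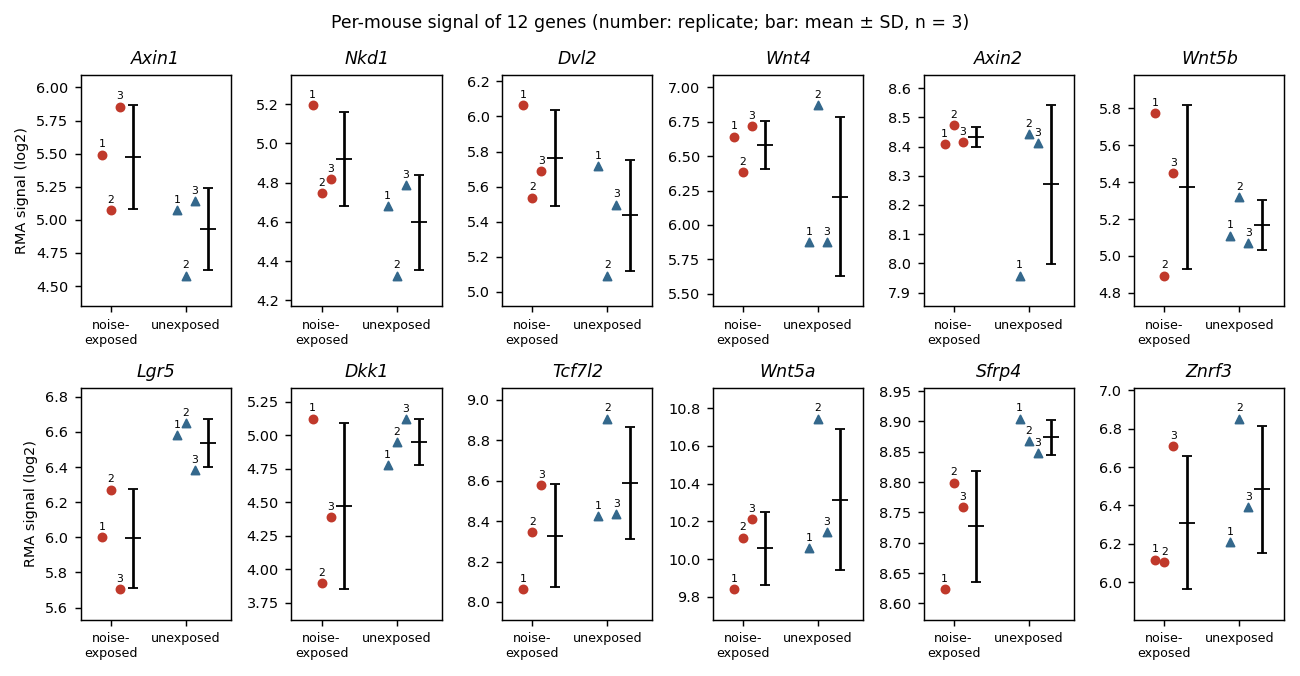
RMA signal on the log2 scale (y axes, a scale per gene) of the 6 tested genes with the lowest unadjusted p among those higher (top) and those lower (bottom) in noise-exposed mice, with a point per mouse, its replicate number, and the mean ± SD of each group of 3. The groups are separated for Lgr5 and Sfrp4 and overlap for the other 10 genes.

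Over 11 tested members with a further tested probe set, 7 of 21 further probe sets had the opposite sign, and they belonged to 5 genes: Wnt5a, Sfrp1, Znrf3, Ctnnb1 and Nkd1.

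The unexposed mice differed among themselves. The range of the 3 unexposed values exceeded the size of the log2 fold change for 22 of the 25 members (not Sfrp4, Dkk1 and Lgr5) and for 86% of all tested genes. Unexposed replicate 2 was the highest of the 6 mice for 10 of the 25 members, against 26.7% of all tested genes, and the lowest for 6 members, against 15.7%. The 10 were the ligands Wnt4, Wnt5a, Wnt6 and Wnt9a, the inhibitor Frzb, Lgr5, Znrf3, Gsk3b and the nuclear factors Tcf7l2 and Lef1. The 6 were Axin1, Apc, Ctnnb1, Dvl1, Dvl2 and Nkd1. Lef1 had 8.87, 9.11 and 9.29 in noise-exposed mice, against 8.73, 9.75 and 9.12 in unexposed mice. Wnt9a had 6.67, 6.07 and 6.55 in noise-exposed mice, against 5.87, 6.89 and 6.66 in unexposed mice. Frzb had 6.11, 6.29 and 6.65 in noise-exposed mice, against 5.94, 6.83 and 5.92 in unexposed mice. In these 3 genes the noise-exposed values lay inside the range of the unexposed ones. Of the cell type lists, the summed signals of macrophage, supporting cell and smooth muscle and pericyte markers were also highest in unexposed replicate 2. Those of blood cell and Schwann and satellite glial markers were lowest there. A sum of linear signals is weighted to its brightest gene, which in the first 3 of these lists was Csf1r, Prox1 and Rgs5. The part of these cell types in the spread of the Wnt genes was not tested.

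**Figure D4:**
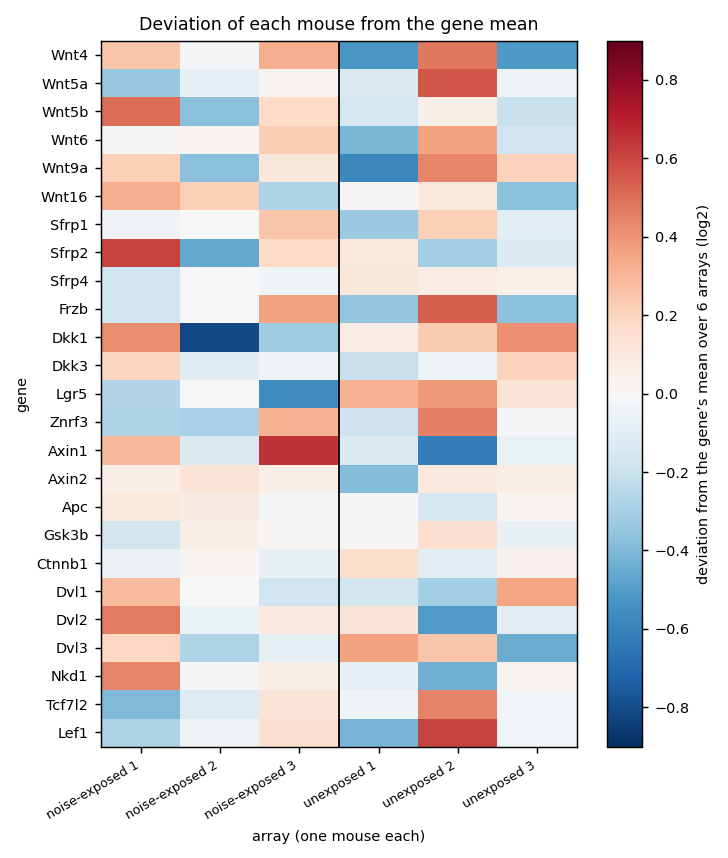
Deviation of each mouse (columns, noise-exposed left of the line and unexposed right of it) from the gene's mean over 6 arrays (colour, log2) for the 25 tested genes (rows). In the column of unexposed replicate 2, Lef1, Wnt5a and Frzb are red, with signals of 9.75, 10.75 and 6.83, and Axin1 and Dvl2 are blue, at 4.58 and 5.09.

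Wnt4, Wnt6, Wnt9a and Lef1 had their highest signal in unexposed replicate 2 and their lowest in unexposed replicate 1, 4 of the 25 members, against 7.63% of all tested genes. In Wnt4 unexposed replicates 1 and 3 were level, and in Wnt9a unexposed replicate 3 was near the top, so the genes share the highest and lowest mouse and not the whole pattern. Their promoter windows are shown to let these 4 genes, grouped after their values were seen, be compared in sequence. Each window holds 300 bases, 250 before and 50 after a RefSeq transcription start on build GRCm38.p6, plus strand, and capitals mark matches on either strand to the core of the TCF and LEF site (CTTTGA), the E-box (CACGTG) and the GC box (GGGCGG), whose matches can overlap one another. Lef1 has 4 annotated windows, and the one shown belongs to its most downstream start.
Wnt4, chr4:137277385-137277684: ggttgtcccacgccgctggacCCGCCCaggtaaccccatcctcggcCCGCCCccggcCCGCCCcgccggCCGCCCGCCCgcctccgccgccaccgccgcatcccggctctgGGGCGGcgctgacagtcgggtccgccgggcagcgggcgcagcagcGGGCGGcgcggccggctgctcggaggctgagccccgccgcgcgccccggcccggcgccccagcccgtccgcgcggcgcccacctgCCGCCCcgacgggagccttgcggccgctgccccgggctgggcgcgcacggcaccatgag
Wnt6, chr1:74771642-74771941: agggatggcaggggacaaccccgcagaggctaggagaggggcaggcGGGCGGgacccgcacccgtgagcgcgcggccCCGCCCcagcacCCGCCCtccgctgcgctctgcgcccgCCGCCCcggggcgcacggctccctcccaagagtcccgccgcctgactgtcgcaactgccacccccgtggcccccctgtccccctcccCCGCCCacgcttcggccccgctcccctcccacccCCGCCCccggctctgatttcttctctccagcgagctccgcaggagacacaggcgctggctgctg
Wnt9a, chr11:59306680-59306979: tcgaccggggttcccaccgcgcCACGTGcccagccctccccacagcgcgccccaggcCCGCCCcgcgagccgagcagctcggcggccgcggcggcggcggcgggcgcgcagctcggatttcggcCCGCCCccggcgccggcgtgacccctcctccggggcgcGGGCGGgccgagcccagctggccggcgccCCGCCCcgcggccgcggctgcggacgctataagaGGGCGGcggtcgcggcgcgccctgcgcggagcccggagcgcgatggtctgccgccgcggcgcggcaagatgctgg
Lef1, chr3:131156044-131156343: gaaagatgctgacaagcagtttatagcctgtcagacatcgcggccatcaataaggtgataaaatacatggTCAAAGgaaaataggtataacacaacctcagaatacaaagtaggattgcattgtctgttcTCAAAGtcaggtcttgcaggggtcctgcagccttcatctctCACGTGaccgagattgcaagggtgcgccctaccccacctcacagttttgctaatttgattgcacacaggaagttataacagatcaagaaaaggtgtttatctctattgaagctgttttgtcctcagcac
The Wnt4, Wnt6 and Wnt9a windows held 8, 6 and 5 GC box matches, and Wnt9a held 1 E-box as well. The Lef1 window held 2 TCF and LEF cores, 1 E-box and no GC box, and its other 3 windows held 1 GC box each and neither of the other motifs. RefSeq's table gave 44 windows for 34 of the 46 listed genes, Tcf7 among them, of which 70.5% held a GC box, 13.6% a TCF and LEF core and 9.09% an E-box. Over all 32851 windows the shares were 35.7%, 16% and 7.15%. A match is a description of the letters in the window and not evidence of binding.

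The unexposed mice differ in dissection day and sex, so each difference was also taken against the matching mouse. Against unexposed replicate 1 alone, of the same day, 17 of 25 members lay above 0 with a median of 0.10, where all tested genes had a median of 0.12. Against unexposed replicate 2 alone, of the same sex, 9 of 25 lay above 0 with a median of -0.14, where all tested genes had a median of -0.0032. The sign differed between these comparisons for 10 of the 25 members, among them Wnt4, Wnt6, Wnt9a, Lef1, Frzb and Axin2, and for 42.8% of all tested genes. In both fits, with day or with sex as a term in limma, 0 members were called. Each rests on 1 unexposed mouse of its kind, which belongs to a litter of its own. RNA input differed too, at 21 ng in unexposed replicate 1 and 8 ng in unexposed replicate 2. Day, sex, litter and RNA input thus cannot be told apart from the mouse.

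**Figure D5:**
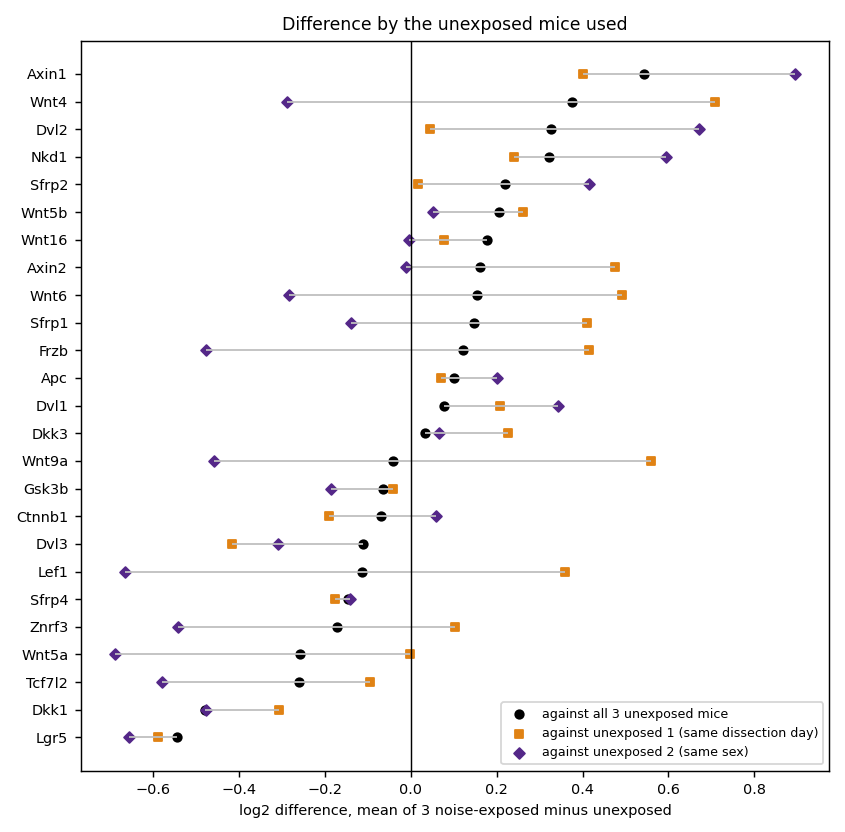
Log2 difference (x axis) of the mean of 3 noise-exposed mice minus all 3 unexposed mice (circles), minus unexposed replicate 1 of the same dissection day (squares) and minus unexposed replicate 2 of the same sex (diamonds) for the 25 tested genes (y axis). Lgr5, Dkk1, Sfrp4 and Tcf7l2 stay left of 0 and Axin1, Nkd1 and Dvl2 right of 0 in all 3, while Wnt4 and Lef1 change side.

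The rest of the pathway was read from the same fit. Of 115 further genes listed, 109 were on the array, 93 were tested and 0 were called in either direction; 50 lay above 0 and 43 below, and 7 had an unadjusted p under 0.05 (limma), where 6.19% of all tested genes did. Their groups were separated for 12 genes with noise-exposed mice higher and for 2 with noise-exposed mice lower, against 10.4% and 3.41% of all tested genes. These counts lie near the shares over all genes. Among target genes of the canonical branch, Fst, which encodes the activin antagonist follistatin, had 6.79, 7.00 and 7.26 in noise-exposed mice, against 7.52, 8.02 and 7.75 in unexposed mice, without overlap. Its log2 fold change was -0.75 (95% interval -1.19 to -0.31, limma adjusted p = 0.667), and Jun, a transcription factor of the stress response, was at 0.31. Of 9 tested target genes 4 lay above 0, and Myc, Sp5, Fosl1, Mmp7 and Ppard were not detected on any array.

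In the planar polarity arm 11 of 16 tested genes lay above 0. Invs, which encodes the Dishevelled-binding protein inversin, had 7.12, 6.69 and 6.82 in noise-exposed mice, against 6.35, 6.18 and 6.08 in unexposed mice, without overlap. The log2 fold change of Invs was 0.67 (95% interval 0.28 to 1.06, limma adjusted p = 0.667), and that of Ankrd6, the relative of the fly gene diego, was 0.54. Among other inhibitors 4 of 6 lay above 0, with Apcdd1, a membrane inhibitor, at 7.53, 7.32 and 7.22 in noise-exposed mice, against 6.73, 7.00 and 6.84 in unexposed mice. Apcdd1 thus was higher in every noise-exposed mouse, by 0.50 (SE 0.15, limma adjusted p = 0.667), and Kremen1, a Dickkopf receptor, was at 0.18. Of kinases and degradation factors 7 of 18 lay above 0, with Csnk1g2 at 0.50 and Siah1a at -0.33. Of nuclear cofactors 9 of 15 did, with Tle2 at 0.34 and Crebbp at -0.29, and in the calcium arm 7 of 12 did, with Camk2g at 0.29 and Nfatc3 at 0.24. The secretion genes Porcn, which attaches the lipid to Wnt proteins, and Wls, their carrier, were detected on all 6 arrays and lay at -0.12 and -0.02. Of the R-spondins and their other receptors 2 of 4 lay above 0, with Lgr4 at -0.18 and Rspo3 at 0.04, and Rspo1 and Rspo4 were not detected. Of the Wnt receptors 6 of 11 lay above 0, with Fzd9 at 0.56 and Ror1 at 0.57. They held 3 genes with an unadjusted p under 0.05 (limma), against 6.19% of all tested genes. For 3 receptors the groups were separated with noise-exposed mice higher, against 10.4% of all tested genes, and none was called.

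Markers of the cell types that the dissected tissue can hold were read from the same arrays. All 10 neuronal markers and all 7 measured Schwann and satellite glial markers were detected on at least 1 array. The log2 summed signal of Schwann and satellite glial markers was 14.56 to 14.62 in noise-exposed mice, against 14.51 to 14.54 in unexposed mice. That of 6 oligodendrocyte markers, of which Opalin was not detected, was 12.70 to 12.76 in noise-exposed mice, against 12.43 to 12.53 in unexposed mice, and that of 8 fibroblast and matrix markers 12.58 to 12.64 in noise-exposed mice, against 12.27 to 12.50 in unexposed mice. These 3 summed signals did not overlap between the groups. In each the noise-exposed mice were higher. Of all tested genes taken singly, 10.4% were separated in that direction, but a sum is another measure and no share of separated sums was computed. Pmp22, the brightest gene of the Schwann and satellite glial list, was at -0.05. Mal counts in both the Schwann and satellite glial and the oligodendrocyte list, so those lists are not independent. Of the single genes, 4 of 7 Schwann and satellite glial markers lay above 0, with S100b at 0.32 and Sox10 at 0.46 but Fabp7 at -0.21 and Egr2 at -0.11. The oligodendrocyte list had 4 of 5 tested genes above 0, with Mobp at 0.78, Mog at 0.51 and Cldn11 at -0.02, and the fibroblast and matrix list 8 of 8, with Bgn at 0.51 and Postn at 0.59. The lists of neurons, astrocytes, osteoblasts, endothelial cells, smooth muscle and pericytes, macrophages, supporting cells and blood cells overlapped. Of neuronal markers 7 of 9 tested lay above 0, with Tubb3 at 0.48 and Gata3 at -0.26. Of smooth muscle and pericyte markers 2 of 5 did, with Pdgfrb at 0.25 and Rgs5 at -0.27, and the list's median was -0.19. Of astrocyte markers 5 of 5 lay above 0 (Aldoc 0.25), of osteoblast and osteocyte markers 6 of 8 (Sp7 0.34), of endothelial markers 5 of 6 (Pecam1 0.26) and of macrophage markers 4 of 5 (Tyrobp 0.50). Of supporting cell markers 3 of 4 did (Otog 0.90), and both tested blood cell markers (S100a9 0.77 and S100a8 0.66). Otog and S100a8 were each detected on 3 noise-exposed arrays and 1 unexposed array, so they passed the filter through the group where they were higher. The blood cell marker Cd79a averaged 3.85 in noise-exposed and 4.53 in unexposed mice. It was detected on 2 unexposed arrays only and was not tested. Against unexposed replicate 1 alone, S100a9 was at -0.36 and S100a8 at -0.29. None of these genes was called, and their part in the values of the Wnt genes was not tested.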

How the data were processed

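Messenger RNA was measured in modioli of 6 mice, 3 noise-exposed and 3 unexposed, grouped by the labels, where each is a different animal. The authors deposited log2 signals. Per their deposited code, robust multi-array averaging over the 6 arrays gave 1 value per probe set, in R 2.6.1 with Bioconductor release 2.1 per the labels. Quantile normalization in that step hides a change of most transcripts in 1 direction, and background correction could not be varied here. The authors' deposited table of 17 arrays adds a mean log2 signal and a Bonferroni-corrected p-value per receptor probe set.

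Of 45101 probe sets, 64 controls were left out; of the rest 34945 had 1 gene symbol, 932 several and 9160 none, and 34741 were matched to RefSeq by Entrez ID. Probe sets above 4.25 on at least 3 arrays were tested (25200) with limma 3.58.1 in R 4.3.3 (lmFit, eBayes, two-sided, Benjamini-Hochberg over all of them). With 3 mice a group, exact permutation p-values start at 0.1. The members, lists and tests were chosen with earlier results of these data known. Genes with values per mouse are the first 6 per direction by unadjusted p and those with separated groups; of each further list, the 2 with the lowest p. Wnt3, Lef1, Wnt9a, Frzb, Fabp7, Egr2 and Cldn11, and some genes below the first 6, were added after their values were seen. The alternatives tried were of normalization, filter, covariates, replicate block, variance model, array weights, probe set choice and each array left out. The test was checked on simulated data with independent noise per array and shifts larger than any member's difference. Litter, sex and day were not simulated. Promoter windows are RefSeq's (GRCm38.p6).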

Additional observations from a re-analysis of the deposited data

How the results depend on the processing

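Under the 17 alternatives run, 0 members and 0 further pathway genes were called, including with the replicate number as a replicate block (0 probe sets called over the array), and the number of probe sets called over the whole array was 0 except without unexposed replicate 2, where it was 15, none of them a member. The count of members above 0, 14 of 25, was 23 of 45 without a filter and 9 of 25 with sex as a term, and their median of 0.08 was -0.14 with sex as a term. With each array left out in turn the count was 12 to 16, the median -0.0078 to 0.12, the members called 0 and the members detected 22 to 23. Detection on all 6 arrays, 22 members, was 17 with a cutoff of 5.1 and 25 on at least 3 arrays. For the 12 genes taken by lowest p, 4 of 201 values changed sign. The alternatives of filter, replicate block and variance model return the same log2 fold change, so no sign could change there. The 12 genes were also picked on these same data, so the count is no measure of how stable the signs are. With sex as a term Wnt4 was at -0.29 and Axin2 at -0.010, which rests on unexposed replicate 2 alone. Znrf3 was at 0.10 with the dissection day as a term and at 0.012 without unexposed replicate 2, the top of a range that went down to -0.37 when single arrays were left out. The lowest adjusted p among the 201 was 0.189. Same-numbered mice of the groups share only a number: their deviations correlated at 0.0937, 0.025 and -0.0379 over probe sets. The number of arrays and signals near the cutoff (Wnt16, Dkk1, Dvl3) limit what could be seen.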
